A study of Mus musculus with 66 samples.

Results

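H3K27me3 is the histone mark that Polycomb repressive complex 2 writes and that Polycomb group proteins keep on silent developmental genes, most often at CpG-rich start sites. H3K4me3 marks start sites that are active or poised, and a region that carries both marks is usually called bivalent. H3K27ac marks active promoters and enhancers, and ATAC-seq measures how open the DNA is. The regions described here are those of the union of all peaks in mouse small intestinal organoids that were high in H3K27me3 and low in H3K4me3. Per region, the normalized scores of the 9 H3K27me3 libraries and those of the 9 H3K4me3 libraries were averaged, and members were chosen by these values: a region was kept if it lay in the top 10% by H3K27me3 and not in the top 30% by H3K4me3. This left 5583 of 94469 regions. They are called the members below, and the 3935 regions high in both marks serve as comparison.

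Crypt-derived organoids, from a line whose Lgr5 locus carries a GFP and diphtheria toxin receptor cassette, were grown in 3 media. ENR (EGF, Noggin and R-Spondin-1) is the conventional mixed culture. CV is ENR with CHIR99021 at 3 µM, an inhibitor of the kinase GSK3, and valproic acid at 1 mM, an inhibitor of histone deacetylases, given for 5 days, and is enriched for stem cells. EN is ENR with R-Spondin-1 left out for 2.5 days and is depleted of stem cells. ATAC-seq and RNA-seq had 4 libraries per culture, ChIPmentation of each histone mark 3 per culture, and ChIPmentation of Hnf4g, an enterocyte transcription factor, 1 per culture. A score is the number of reads in a region after the authors' normalization between libraries, rounded to a whole number. For H3K27me3 the regions were extended to 1000 bp per the study's methods. Scores of this mark therefore mostly cover a longer stretch than those of ATAC, H3K27ac and H3K4me3. Scores summed to 1752385 to 2109261 per ATAC library, 1010511 to 1327017 per H3K27me3 library, 1345873 to 1760511 per H3K27ac library and 817265 to 1100967 per H3K4me3 library. All 9 epithelial markers looked up had an RNA row (8432 to 8563 CPM summed per library in CV, 9343 to 9427 in ENR and 8894 to 9997 in EN). Mesenchymal markers had 3 of 8 rows, Col1a1, Col1a2 and Vim (3.45 to 4.72 CPM summed in CV, 7.42 to 8.84 in ENR and 20.9 to 26.3 in EN). Blood markers had 2 of 4, Ptprc and Cd3e, the latter at 0 in every library (0 to 0.133, 0.881 to 1.54 and 1.71 to 3.31). Of neuronal and glial markers Tubb3 alone of 5 had a row (at most 1.37 CPM), and of 4 endothelial markers 0. The part of other cell types in the results below was not tested. Library EN1 of the ATAC series stands apart: its mean score over the members was 7.31, while the other EN libraries lay between 2.66 and 3.38. In 434 members (7.77%) it exceeded the mean of the other EN libraries more than 3-fold, against 4.06% of all regions.

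The limits of the rule were a mean H3K27me3 score of 18.22 and a mean H3K4me3 score of 2.667, and the first of them was shared by 76 regions, all kept. Regions just inside the first limit, near Ndufa10, Gm10188 and 1700084C01Rik, had a mean of 18.22, and those just outside, near Il17f, Nckap5 and Rgs8, had 18.11. On the H3K4me3 side, regions near Erbb4 and Tnp1 had 2.56 and stayed in, whereas regions near Sema4c, Gpr45 and Fev had 2.67 and did not. The step across either limit is thus small. Among the members the mean H3K27me3 score ran from 18.2 to 205, with a median of 28.8, and the median over all regions was 7.67. These values selected the members and are given as a description. Scores are per region and not per length, and only H3K27me3 was read over extended regions. A narrow region can thus fall below the H3K4me3 limit more easily than a wide one. The median width was 168 bp for members, 420 bp for the regions high in both marks and 220 bp for all regions.

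The members were of different kinds by sequence. The division was made after the values had been seen, so the groups are described without a test. The first kind held at least 40 CpG dinucleotides per kb in the 1 kb around the region's centre, 1337 members or 23.9%, and is called CpG-rich. The second kind held a run of at least 25 bases in which purines (A, G) and pyrimidines (C, T) alternate, with at least 5 CG or GC steps in the run, 1094 members or 19.6%. Both strands of such a run alternate, and a member with both features counts here only, as 11 did. The other 3152 members, 56.5%, had neither.

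The first members shown are Hoxd11, with the strongest H3K27me3 of the Hox genes, and Igfbp5 and Lhx6, which changed in ATAC between cultures. Sequences were read 5′ to 3′ from the plus strand of mm9, with CpG dinucleotides in capitals.
Hoxd11, at the start site, chr2:74520245-74520335: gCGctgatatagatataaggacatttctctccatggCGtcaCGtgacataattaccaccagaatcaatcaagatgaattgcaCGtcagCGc
Igfbp5, in an intron, chr1:72919184-72919342: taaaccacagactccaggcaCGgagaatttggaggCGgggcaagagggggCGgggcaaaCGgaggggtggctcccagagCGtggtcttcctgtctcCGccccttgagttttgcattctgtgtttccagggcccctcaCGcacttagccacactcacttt
Lhx6, in an intron, chr2:35948378-35948547: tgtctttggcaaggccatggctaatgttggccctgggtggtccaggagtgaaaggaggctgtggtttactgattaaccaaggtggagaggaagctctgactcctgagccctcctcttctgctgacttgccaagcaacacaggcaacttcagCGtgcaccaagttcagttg
The Hoxd11 member holds 5 CpG in 91 bases and the Lhx6 member 1 in 170. They were not chosen by kind, and the Igfbp5 member, with 23 CpG per kb around its centre, is 1 of the other members.

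Members of the second kind are shown next because they are among the 10 members with the highest H3K27me3 or, for Ccl6, lie at the start site of a gene that changed in RNA. Here the alternating run is in capitals.
Tlx1, between genes, chr19:45231702-45231941: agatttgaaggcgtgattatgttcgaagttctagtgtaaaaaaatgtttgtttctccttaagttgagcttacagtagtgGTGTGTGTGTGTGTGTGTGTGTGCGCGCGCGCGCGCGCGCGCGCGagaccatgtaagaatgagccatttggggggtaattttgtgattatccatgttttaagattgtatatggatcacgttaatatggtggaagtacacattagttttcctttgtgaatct
Ttll11, in an intron, chr2:35822466-35822744: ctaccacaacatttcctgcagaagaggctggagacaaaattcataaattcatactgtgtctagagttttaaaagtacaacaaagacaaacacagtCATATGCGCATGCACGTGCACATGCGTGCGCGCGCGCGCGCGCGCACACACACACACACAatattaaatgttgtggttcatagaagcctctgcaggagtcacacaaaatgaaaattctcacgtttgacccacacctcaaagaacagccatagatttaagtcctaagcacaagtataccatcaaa
Mak, between genes, chr13:41186228-41186502: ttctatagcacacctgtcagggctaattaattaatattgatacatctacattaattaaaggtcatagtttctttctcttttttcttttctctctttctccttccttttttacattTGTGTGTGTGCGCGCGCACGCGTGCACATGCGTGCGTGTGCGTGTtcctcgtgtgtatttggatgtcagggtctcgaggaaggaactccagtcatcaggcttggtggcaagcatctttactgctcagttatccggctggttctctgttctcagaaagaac
Ccl6, near the start site, chr11:83402842-83403062: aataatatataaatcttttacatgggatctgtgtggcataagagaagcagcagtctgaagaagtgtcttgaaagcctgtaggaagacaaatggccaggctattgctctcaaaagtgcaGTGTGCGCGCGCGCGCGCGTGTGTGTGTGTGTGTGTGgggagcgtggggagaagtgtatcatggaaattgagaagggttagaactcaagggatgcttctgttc
The runs are 45, 60, 45 and 37 bases long and hold 22, 25, 17 and 14 CG or GC steps.

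CpG-rich members lay mostly at start sites. Of the 1337, 771 (57.7%) were within 500 bp of an annotated start site, a further 14.5% lay in exons, 9.95% in introns and 17.9% between genes. The members with an alternating run did not: 2.83% were at a start site, 42.0% in introns and 52.7% between genes. Of the other members 10.2% were at a start site. Over all members the share was 20.1%, close to the 19.1% of all regions and below the 49.7% of the regions high in both marks.

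**Figure D1:**
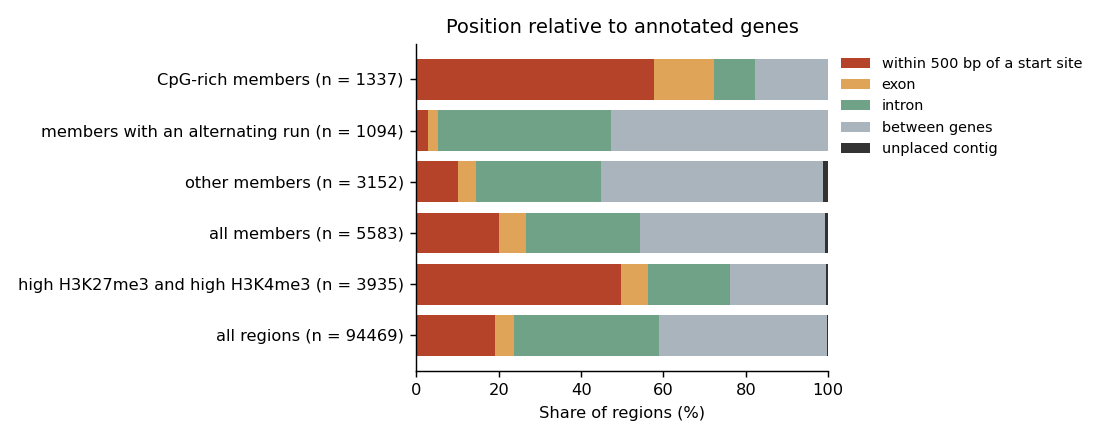
Share of regions (%) within 500 bp of a start site, in exons, in introns, between genes or on unplaced contigs, for the 3 groups of members, all members, the regions high in both marks and all regions. CpG-rich members sit at start sites (57.7%), members with an alternating run almost never do (2.83%).

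The run was closely tied to H3K27me3 in the whole table. Of 2567 regions with such a run among all 94469, 2159 (84.1%) lay above the H3K27me3 limit, and 1065 of these were also high in H3K4me3. The share above the limit was 25.2% for CpG-rich regions and 4.85% for the rest. Median H3K27me3 rose with the length of the run where it held at least 5 CG or GC steps, from 7.11 at 10 to 14 bases to 18.6 at 20 to 24, 39.8 at 25 to 29, 52.1 at 40 to 59 and 55.0 at 60 or more. The class of 1 to 9 bases with at least 5 steps had 9.44. Runs with fewer than 5 such steps stayed between 6.78 and 7.67 at every length. This is a description over regions, which share libraries and differ in width and base composition. Some members counted among the others had a shorter run: the 202 with a run of at least 16 bases had a median H3K27me3 of 42.1 and a median H3K27ac of 8.11, against 22.6 and 1.56 for the remaining 2911.

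**Figure D2:**
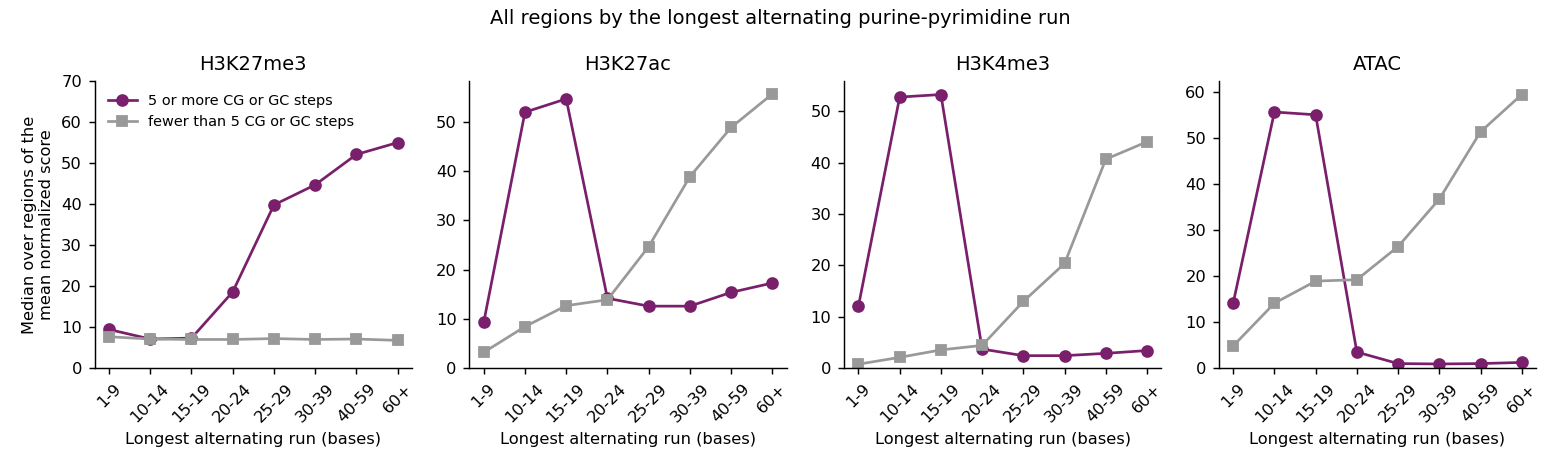
Median over regions of the mean normalized score of H3K27me3, H3K27ac, H3K4me3 and ATAC (vertical axes) against the longest alternating run in bases (horizontal axes, classes), for runs with 5 or more CG or GC steps and with fewer. H3K27me3 climbs only where the steps are there, from 7.11 at 10 to 14 bases to 55.0 at 60 or more. Between the same classes ATAC falls from 55.6 to 1.25, with its lowest value, 0.917, at 30 to 39 bases. The class of 1 to 9 bases with 5 or more steps has 9.44 in H3K27me3 and 14.1 in ATAC.

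The name Polycomb region rests on H3K27me3, which the rule used. At the members with an alternating run, H3K27ac and Hnf4g, which the rule did not use, also gave more signal than at closed DNA. Their median scores were 51.5 for H3K27me3 and 10.1 for H3K27ac, the latter above the 4.22 of all regions, while ATAC was 0.833 against 5.75. CpG-rich members had 35.1, 1.22 and 1.25 for H3K27me3, H3K27ac and ATAC, and the others had 23.0, 1.67 and 2.58. As a reference for closed DNA, 13209 regions outside the H3K27me3 limit with a mean ATAC score under 2 and no run had medians of 7.89, 1.67 and 1.33. H3K4me3, which the rule kept low, had a median of 1.83 at members with a run and 0.333 in these closed regions. The H3K27ac of CpG-rich members was thus below that of closed regions, and that of members with a run was above it.

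Among the groups of members, Hnf4g reads per region were highest at members with a run as well. Members with a run took 1.89 reads per region in CV and 9.19 in ENR, closed regions 0.180 and 0.792, and CpG-rich members 0.347 and 1.59. In EN the values were 7.45, 2.57 and 5.31. All members together held 5.11% of the 84340 reads in CV (95% Wilson interval 4.96 to 5.26%), 5.26% of 352600 in ENR (5.19 to 5.33%) and 1.47% of 1816497 in EN (1.45 to 1.48%), while they are 5.91% of the regions. These intervals cover counting error only, and 1 library per culture allows no test between cultures. The cause of the signal at alternating runs was not tested.

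**Figure D3:**
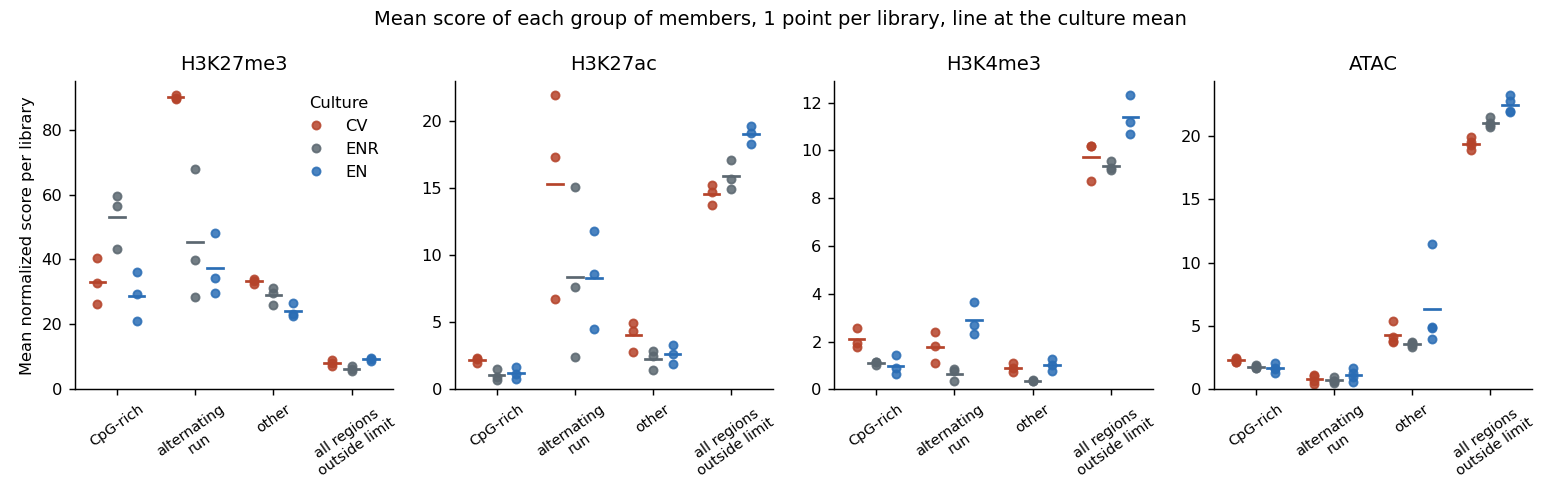
Mean normalized score per library (vertical axes, linear, 1 point per library, line at the culture mean) in CV, ENR and EN for the 3 groups of members and for all regions outside the H3K27me3 limit. Members with a run lie highest in H3K27me3 in CV (89.4 to 90.7) and are raised in H3K27ac, yet near 0 in ATAC.

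Of the 10 members with the highest mean H3K27me3, 8 held a run. The highest of all lay on the unplaced contig 8_random, with scores of 296, 329 and 320 in CV, 222, 145 and 77 in ENR and 200, 143 and 115 in EN. No sequence of the contig was used here. The 8 with a run lay near Vax1, Zdbf2, Mak, Ttll11, Gpr133, Mobp, Tlx1 and Hnrnpa3, from 4222 to 203257 bp from the nearest start site. The member near Mobp scored 367, 309 and 295 in CV, 178, 49 and 105 in ENR and 62, 84 and 79 in EN. Its CV libraries did not overlap the others. Its ATAC score never exceeded 2 in any library, while its H3K27ac reached 78 in 1 CV library and was 8 in another. The remaining one, 241516 bp from Olfr161, had neither feature and varied little: 203, 167 and 184 in CV, 202, 170 and 135 in ENR and 145, 141 and 193 in EN. None of the 10 lay at a start site.

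Members were unevenly spread over the chromosomes. On the X, 451 of 2484 regions (18.2%) were members, with a median H3K27me3 of 21.2, against 5.58% of the regions off the X. On unplaced contigs 39 of 129 regions (30.2%) were members, among them 21 of 34 on Un_random and 12 of 21 on 8_random. Chromosome 2, which carries the Hoxd cluster, had 510 of 7137 (7.15%), and chromosome 16 the lowest share of the numbered chromosomes, 3.53%.

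Some members lay close together. Joined over gaps of under 10 kb, they formed 4448 runs of neighbours, 3708 of them a single member, and 30 with at least 5, which held 188 members. The longest had 9 members each: the stretch from Evx2 to Hoxd9 over 45.7 kb, the heart and limb factor Hand2, the eye and pancreas factor Pax6, and a stretch at Izumo1, Rasip1 and Mamstr. Then came Hoxb9 to Hoxb7, Hoxc10 to Hoxc8 and Msx1 with 8 each, and Tlx1, Sox17, Emx2 and Nkx2-2 with 7. Of the 9 at Evx2 to Hoxd9, 6 were CpG-rich and 0 held a run.

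In each of the stretches named above the highest H3K27me3 score was that of an ENR library. Values for 3 of them follow. In the Hoxd stretch the mean H3K27me3 score per library lay between 39.4 and 53.0 in CV, 63.1 and 125 in ENR and 19.6 and 60.8 in EN. The Hoxb stretch had 22.8 to 33.5 in CV, 63.9 to 128 in ENR and 30.0 to 53.1 in EN. At Msx1, a homeobox gene of craniofacial and limb tissue, the ranges were 15.4 to 19.6, 36.6 to 66.1 and 22.6 to 43.8. CV did not overlap ENR in any of these 3 stretches. Their ATAC scores per library were low, at most 8 for Msx1 in CV and 1.88 in ENR.

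Start sites of developmental genes were often members. Of the protein-coding genes that had any region within 500 bp of a start site, 806 of 13706 (5.88%) had a member there. For Hox genes the count was 14 of 24 (58.3%), for other developmental factor families 41 of 130 (31.5%) and for secreted ligands of the Wnt, Bmp, Fgf and Gdf families 13 of 44 (29.5%), against 54.2%, 56.9% and 59.1% with a region high in both marks. Over all 13706 genes 1625 (11.9%) had a region high in both marks, so a share above the background was not particular to the members. Among the 41 factors were Alx1, Alx4, Dlx5, Foxc2, Gata3, Hand2, Lhx3, Olig1, Pax6, Six2, Sox17, Tbx18 and Twist1. Ligands among the 13 included Bmp4, Wnt1, Wnt3a, Wnt11, Fgf2 and Fgf3. None of 24 genes encoding Polycomb proteins or H3K27 demethylases had a member. Of 28 genes of the intestinal epithelium 2 had one, Neurog3, the factor that starts the enteroendocrine lineage, and Chga. Of 10 enteroendocrine genes 8 had one, among them Chga, Chgb, Neurog3, Cck, Pyy, Nkx2-2 and Pax6. Of the 9 epithelial markers 0 had a member, of 4 mesenchymal markers 1 (Twist1), of 3 neuronal and glial markers 0 and of 1 endothelial marker 0, while no blood marker had a region. These lists were chosen with earlier results of the same data known, so the counts are descriptions.

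The strongest members of the Hox, ligand, mesenchymal and epithelial lists had ATAC scores of at most 4 in every library. At Hoxd11, a homeobox gene of limb patterning, H3K27me3 scored 58, 95 and 67 in CV, 76, 127 and 187 in ENR and 100, 25 and 44 in EN, so that EN overlapped both other cultures. ATAC there was 3, 1, 1 and 4 in CV, 0, 1, 1 and 2 in ENR and 1, 0, 0 and 0 in EN (EN against CV -1.33 ± 0.43, SE, adjusted p = 0.023). Fgf2, a growth factor, had H3K27me3 of 57, 46 and 74, then 68, 85 and 159, then 74, 13 and 31. Twist1, a mesenchymal factor, had 39, 62 and 103, then 48, 48 and 159, then 79, 17 and 26, and its H3K4me3 never exceeded 3. At Neurog3 the scores were 29, 50 and 42 in CV, 24, 33 and 19 in ENR and 24, 24 and 26 in EN. At Twist1 the ranges of all 3 cultures overlapped.

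H3K27me3 between cultures moved in opposite ways in the groups of members. Because the rule used these libraries, the counts describe and test nothing. With limma on log2(score + 1) and Benjamini-Hochberg adjustment over 94466 regions (adjusted p under 0.05), 137 members were lower and 71 higher in CV than in ENR, together 208 or 3.73% against 0.740% of all regions (0.532% lower and 0.207% higher). Among the 3935 regions high in both marks the share was larger, 10.0%, with 339 lower and 55 higher. Of the CpG-rich members 70 were lower and 0 higher, of those with a run 49 were higher and 0 lower, and of the others 67 were lower and 22 higher. The median over all regions was itself shifted by 0.32, so that relative to it the shift of the CpG-rich members (median -0.70) is larger and that of the members with a run (1.06) smaller. After quantile normalization, which removes that shift, 88 were lower and 3 higher, and of the lower ones 41 were CpG-rich and 47 others. Leaving out single libraries moved the count: without ENR3 it was 60, ENR4 85, CV1 87, CV3 121, EN2 320 and ENR2 421. The balance also turned without ENR2, to 280 higher and 141 lower. Per library, the mean score was 33.2 ± 7.10 in CV and 53.1 ± 8.64 in ENR for CpG-rich members and 90 ± 0.666 and 45.4 ± 20.4 for members with a run (SD, n = 3). In bulk cultures, fewer cells of a type and less mark or RNA per cell cannot be told apart.

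Between EN and CV, 36 members were higher and 187 lower in EN, 3.99% in all against 0.528% of all regions (0.140% higher and 0.388% lower). Among the regions high in both marks 70 were higher and 168 lower, 6.05% in all. Of the 187 lower members, 125 held a run, and the count of members was 98 without those of that kind. Quantile normalization turned the balance to 37 higher and 10 lower, so the direction of the balance rests on the scaling. The count also fell to 50 without CV1, CV2 or CV3 each, to 125 without EN1 and to 48 without EN4, and rose to 369 without ENR3. Between EN and ENR 5 members were lower and 0 higher (0.0896% against 0.0127%), with 826 at an unadjusted p under 0.05. The 5 fell to 0 without ENR4 or EN2, to 1 without ENR3, to 3 without CV2 and to 2 without CV3, rose to 9 without CV1, 14 without EN4 and 50 without EN1, and were 0 after quantile normalization. Over all members the mean score was 44.4 ± 2.08 in CV against 38.0 ± 2.24 in ENR and 27.9 ± 0.833 in EN (SD, n = 3).

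Members with far less H3K27me3 in CV than in ENR are described first. Near Ntng2, a netrin family gene, the scores were 2, 8 and 2 in CV, 75, 74 and 64 in ENR and 32, 33 and 24 in EN, and no 2 cultures overlapped. In an intron of Fut2, a fucosyltransferase of the gut surface, they were 2, 7 and 2 in CV, 43, 73 and 54 in ENR and 43, 13 and 57 in EN. At Gli1, the transcription factor that answers hedgehog signals, the member at the start site had 3, 7 and 13, then 55, 70 and 82, then 42, 17 and 21. Rtn4rl2, a receptor of myelin proteins, had 2, 3 and 1 in CV and 46, 51 and 17 in ENR, and Htr2a, a serotonin receptor, 2, 3 and 4 and 21, 79 and 12. In the other direction, the member in an intron of Phactr3 had 64, 28 and 45 in CV, 7, 3 and 1 in ENR and 16, 16 and 4 in EN. A member 2516 bp from Pou1f1, a pituitary factor, which holds a run of 45 bases, had 122, 79 and 80 in CV, 18, 52 and 1 in ENR and 22, 36 and 36 in EN. The member near Atp6v1g3 had 35, 46 and 53 in CV, 15, 1 and 9 in ENR and 1, 1 and 11 in EN, with an ATAC score of 0 in all 12 libraries.

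ATAC was not used by the rule, and 5492 of the 5583 members passed its filter of a score above 0 in at least 3 libraries. Shares of changed members stood below those of the whole table. Between EN and CV, 342 members (6.23%) were more open and 559 (10.2%) less open in EN, against 19.6% and 15.6% of 94166 regions tested, or 901 (16.4%) against 35.2% in either direction (limma, adjusted p under 0.05). Between EN and ENR 229 (4.17%) were more and 214 (3.90%) less open in EN, against 11.6% and 12.5% (8.07% against 24.0% in either direction). Between CV and ENR 237 (4.32%) were more and 151 (2.75%) less open in CV, against 5.11% and 10.7% (7.06% against 15.8% in either direction). Among the regions high in both marks 24.0%, 10.7% and 13.1% were called in either direction in the same 3 contrasts. The members' median ATAC score was 1.5 against 5.75 over all regions. Without EN1 the EN against CV count was 934 and the CV against ENR count 482.

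Of the CpG-rich members 13 were more open and 143 less open in EN than in CV, and 48 were more and 8 less open in CV than in ENR. Of 1075 tested members with a run 13 were more and 4 less open in EN than in CV. The other members held 316 of the 342 that were more open in EN. Mean ATAC scores of the CpG-rich members were 2.28 ± 0.164 in CV, 1.80 ± 0.108 in ENR and 1.67 ± 0.310 in EN (SD, n = 4).

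Igfbp5 and Nr2f1 were among the 3 largest falls of ATAC from CV to EN and also among the 3 largest excesses of CV over ENR. In the intron of Igfbp5, which encodes an IGF-binding protein, ATAC scored 22, 18, 22 and 19 in CV, 2, 2, 1 and 2 in ENR and 0, 1, 2 and 0 in EN. All CV libraries stood above all others, and the log2 difference of EN from CV was -3.76 ± 0.35 (SE, adjusted p = 3.1e-07). H3K27me3 at the same place was 11, 8 and 13 in CV, 98, 76 and 112 in ENR and 35, 42 and 51 in EN. Near Nr2f1, an orphan nuclear receptor of neural development, ATAC was 38, 23, 20 and 26 in CV, 2, 1, 3 and 1 in ENR and 3, 0, 4 and 1 in EN (EN against CV -3.42 ± 0.43, adjusted p = 6.2e-06). Its H3K27me3 was 20, 19 and 6 in CV, 67, 55 and 35 in ENR and 26, 9 and 46 in EN, so CV lay below ENR and overlapped EN.

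The member 5901 bp from Msx1 had ATAC scores of 26, 30, 24 and 31 in CV, 4, 3, 4 and 3 in ENR and 4, 5, 3 and 1 in EN (CV against ENR 2.68 ± 0.30, adjusted p = 1.3e-05), beside H3K27me3 of 2, 3 and 18, then 80, 79 and 60, then 26, 29 and 30. In the intron of Lhx6, a LIM homeobox gene, whose sequence is shown above, ATAC was 16, 16, 7 and 17 in CV, 2, 1, 1 and 1 in ENR and 1, 0, 2 and 1 in EN (EN against CV -2.94 ± 0.37, adjusted p = 8.0e-06). H3K27me3 there was 2, 5 and 1 in CV, 32, 57 and 24 in ENR and 18, 48 and 52 in EN. Both members at Lhx6 start sites also opened in CV against ENR, by 1.76 ± 0.43 (adjusted p = 0.0091) and 1.49 ± 0.33 (adjusted p = 0.0044). Near Meis1, a homeobox cofactor of Hox proteins, ATAC was 30, 16, 18 and 11 in CV, 3, 1, 3 and 1 in ENR and 3, 2, 2 and 2 in EN (2.72 ± 0.34, adjusted p = 3.7e-05). The members at Lhx6 start sites, Meis1 and Gli1 were picked after their values were seen. At Gli1, by contrast, ATAC was 2, 1, 1 and 2 in CV and 0, 0, 1 and 1 in ENR (0.79 ± 0.40, adjusted p = 0.21), although its H3K27me3 was low in CV.

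**Figure D4:**
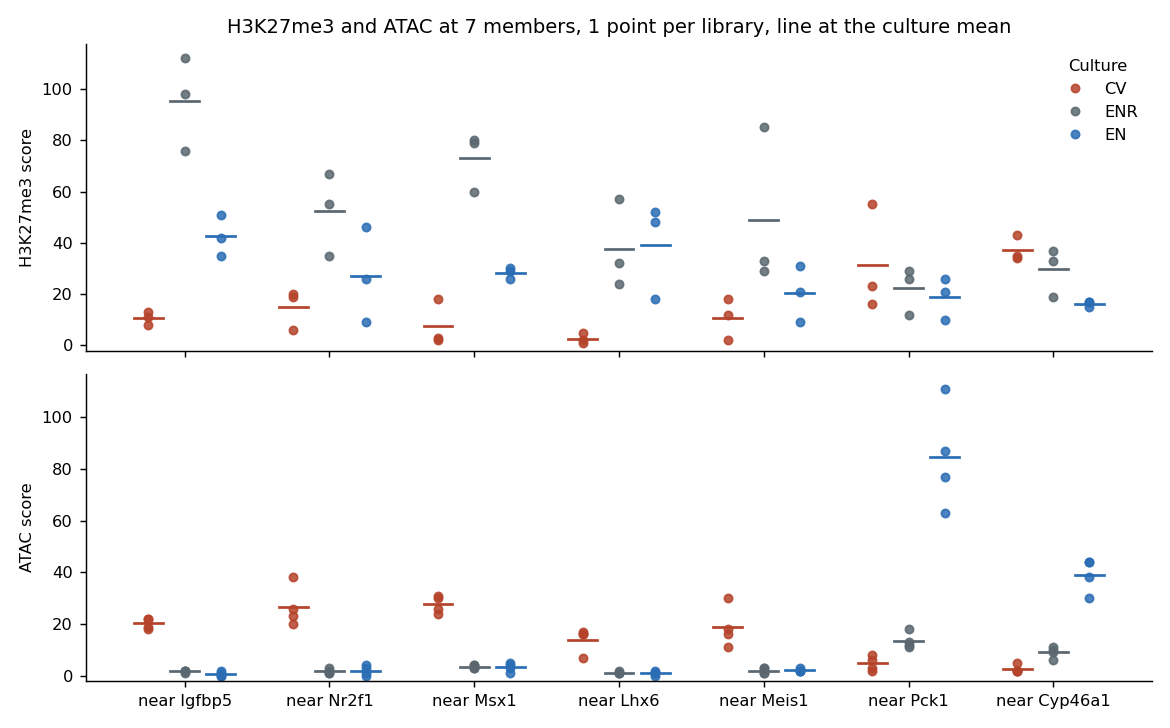
H3K27me3 (upper panel) and ATAC (lower panel) normalized scores at 7 members, 1 point per library and a line at the culture mean, for CV, ENR and EN. At Igfbp5, Nr2f1, Msx1, Lhx6 and Meis1 ATAC is high in CV only, where H3K27me3 is below that of ENR, and near Pck1 and Cyp46a1 ATAC is high in EN.

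Set side by side over all members, low H3K27me3 and open DNA in CV overlapped in part. Of the 137 members lower in H3K27me3 in CV than in ENR, 40 (29.2%) were more open in CV and 0 less open, while over all members tested 4.32% were more open. These 40 are 16.9% of the members more open in CV. H3K4me3 was higher in CV at 16 of 136 of the 137 (11.8%, against 2.42% of all members) and H3K27ac at 2 of 137 (1.46%, against 0.377%). Of the 36 members with more H3K27me3 in EN than in CV, 17 (47.2%) were less open in EN and 0 more open, against 10.2% and 6.23% of all members. Of the 71 with more H3K27me3 in CV than in ENR, 0 changed in ATAC either way among the 66 tested. But 49 of these 71 held a run, and members with a run had a median ATAC score of 0.833. Only 7 of 1075 tested members with a run (0.651%) changed in ATAC in this contrast, so the 0 says little about the other direction. Of the 187 members with less H3K27me3 in EN than in CV, 184 were tested in ATAC, and 5 were more and 3 less open in EN. No test was run on these overlaps.

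The 3 largest rises of ATAC in EN over CV and the 3 largest over ENR lay in introns or between genes. The largest of all was 14217 bp from Pck1, which encodes the gluconeogenic enzyme PEPCK: ATAC was 2, 3, 8 and 6 in CV, 11, 18, 13 and 12 in ENR and 77, 63, 87 and 111 in EN (EN against CV 4.00 ± 0.29, adjusted p = 1.9e-08). The 3 cultures did not overlap. H3K27me3 was 55, 23 and 16 in CV, 26, 29 and 12 in ENR and 10, 26 and 21 in EN, which overlap. In an intron of Cyp46a1, a cholesterol hydroxylase, ATAC was 2, 2, 2 and 5, then 11, 10, 9 and 6, then 44, 38, 30 and 44 (3.47 ± 0.27, adjusted p = 3.3e-08). Near Ankrd33b it was 4, 1, 4 and 2, then 6, 6, 5 and 4, then 39, 30, 39 and 43, and near Tatdn3 1, 1, 3 and 0, then 1, 4, 2 and 2, then 21, 18, 21 and 29.

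At the start site of Gpr133, an adhesion receptor, CV was the culture with the most H3K27me3 and the lowest ATAC, where at Igfbp5 it had the least H3K27me3 and the highest ATAC. H3K27me3 was 71, 48 and 32 in CV, 12, 6 and 11 in ENR and 15, 9 and 19 in EN. ATAC was 0, 1, 1 and 0 in CV, 3, 5, 4 and 3 in ENR and 8, 9, 11 and 16 in EN (EN against CV 3.04 ± 0.34, adjusted p = 2.0e-06). CV lay apart from both other cultures in both readouts.

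Hnf4g reads were found at some of these places in EN. The member near Pck1 held 0, 0 and 38 reads in CV, ENR and EN, and the one near Ankrd33b 0, 0 and 32. The members at Cyp46a1 and near Tatdn3 held few, 0, 0 and 4 and 0, 0 and 3. Over the 342 members more open in EN there were 8.10 reads per region in EN, and over the 559 less open ones 3.18. In CV the values were 0.579 and 0.411, and in ENR 2.31 and 1.21. The EN library holds the most reads, and its mean over all regions was 19.2, above both sets.

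At other members ENR was the most open culture. A member 196411 bp from Tmsb4x on the X is one: ATAC was 15, 10, 10 and 6 in CV, 23, 24, 36 and 31 in ENR and 3, 5, 5 and 3 in EN. The member 9833 bp from Tlx1 had 6, 3, 7 and 3, then 13, 11, 10 and 9, then 1, 3, 1 and 1. Here ENR stood above both other cultures.

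H3K27ac was rarely called at members. Of 5569 tested, 7 were higher and 59 lower in EN than in CV, 1.19% against 7.03% of all regions (5.07% higher and 1.96% lower), 10 higher and 1 lower in EN than in ENR (0.198% against 1.57%, 1.22% higher and 0.353% lower), and 21 higher and 1 lower in CV than in ENR (0.395% against 1.83%, 0.541% higher and 1.29% lower). At an unadjusted p under 0.05 the counts were 584, 218 and 832. The median of all regions was shifted by -0.14, 0.25 and 0.33 in the 3 contrasts. After quantile normalization the counts were 35, 5 and 2, the last with 1 in each direction. Of the 59 lower in EN, 25 held a run. Without EN3 the EN against CV count was 9, 5 higher and 4 lower, without EN4 19, EN2 21, ENR4 29, CV4 30, ENR2 40 and CV3 41. The EN against ENR count was 1 without EN2, 2 without EN4, 5 without ENR2, ENR4 or EN3, 6 without CV5 and 7 without ENR1. For CV against ENR it was 1 without ENR4, 2 without ENR1, 4 without EN4, 5 without EN3, 6 without EN2, 8 without CV4 and 9 without CV3.

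The 3 largest rises of H3K27ac from CV to EN were at a pair of members near Slc6a3, the dopamine transporter gene, and at 1 in Faah. The member 2159 bp from the start site, printed here because its H3K27ac and ATAC part ways, was
Slc6a3, between genes, chr13:73671814-73672036: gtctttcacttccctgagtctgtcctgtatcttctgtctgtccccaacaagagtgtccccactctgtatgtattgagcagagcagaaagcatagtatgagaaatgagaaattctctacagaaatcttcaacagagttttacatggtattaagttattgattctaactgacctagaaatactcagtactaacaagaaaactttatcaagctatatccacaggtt
with 0 CpG. It had H3K27ac of 1, 4 and 3 in CV, 3, 3 and 2 in ENR and 34, 39 and 40 in EN (3.50 ± 0.58, adjusted p = 0.00013), while its ATAC score was at most 2 in every library. The neighbouring member, chr13:73671164-73671532, had H3K27ac of 5, 6 and 6, then 7, 5 and 2, then 49, 32 and 46 (2.68 ± 0.55, adjusted p = 0.0015). Its ATAC went from 6, 8, 7 and 9 in CV through 17, 16, 15 and 20 to 76, 61, 49 and 80 in EN (2.98 ± 0.19, adjusted p = 5.5e-09), and it held 55 Hnf4g reads in EN against 1 in ENR and 0 in CV. In an intron of Faah, which encodes the fatty acid amide hydrolase, H3K27ac was 10, 1 and 5, then 2, 4 and 4, then 68, 35 and 42 (3.22 ± 0.61, adjusted p = 0.00064). H3K27me3 overlapped between EN and CV at Faah, and at the first Slc6a3 member it was 16, 18 and 28 in CV and 12, 2 and 14 in EN.

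The largest falls of H3K27ac were at runs. Near Grp, H3K27ac was 18, 10 and 6 in CV, 2, 12 and 21 in ENR and 1, 0 and 1 in EN (-2.84 ± 0.68, adjusted p = 0.0077). Near Vcpip1 it was 18, 23 and 11, then 6, 8 and 3, then 2, 1 and 2 (-2.75 ± 0.60, adjusted p = 0.0031), and in an intron of Ada, adenosine deaminase, 58, 46 and 18, then 8, 10 and 15, then 12, 2 and 4 (-2.69 ± 0.58, adjusted p = 0.0026). All 3 hold runs of 37 to 56 bases with ATAC scores of at most 5. Over all members with a run the mean H3K27ac score was 15.3 ± 7.77 in CV, 8.37 ± 6.39 in ENR and 8.30 ± 3.64 in EN (SD, n = 3), and the single libraries spread from 6.75 to 21.9 in CV and from 2.39 to 15.1 in ENR.

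H3K4me3, kept low by the rule, is given as a description. Of 4630 members tested, 59 were higher and 159 lower in EN than in CV (4.71% against 4.90%, 2.75% higher and 2.15% lower), and 115 of the lower ones were CpG-rich. Among the regions high in both marks 43 were higher and 670 lower, 18.1% in all. After quantile normalization the split of the members was 15 and 196. Between EN and ENR 323 were higher and 13 lower in EN (7.26% against 6.18%, 5.48% higher and 0.700% lower), 169 of the higher ones with a run, but the all-region median was shifted by 0.44 and quantile normalization left 37 higher and 43 lower. Between CV and ENR 112 were higher and 0 lower (2.42% against 1.13%, 1.10% higher and 0.0270% lower, with a median shift of 0.33), and 2 and 1 after quantile normalization. The excess of lower members rested on the CV libraries: the split was 60 higher and 54 lower without CV2, 99 and 91 without CV3 and 70 and 70 without CV4. The EN against CV count was 8 without EN2, 114 without CV2, 131 without EN4 and 140 without CV4. For EN against ENR it was 116 without EN2, 124 without ENR4, 163 without EN4, 178 without ENR2, 180 without ENR1 and 516 without CV3. For CV against ENR it was 0 without ENR4, 50 without ENR2, 58 without CV4, 61 without CV3, 70 without ENR1, 199 without EN2, 218 without EN4 and 266 without EN1. The scores are small: at the member in an exon of Hoxb13, H3K4me3 was 4, 3 and 6 in CV, 0, 0 and 0 in ENR and 1, 0 and 0 in EN, beside H3K27me3 of 24, 28 and 33, then 93, 147 and 89, then 34, 33 and 75. At the start site of Emx2, a homeobox gene of brain and urogenital tract, H3K4me3 was 5, 6 and 5, then 2, 1 and 1, then 1, 0 and 0.

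RNA could be read for few of the genes at members, since the authors limited their transcript index to genes with a measured protein. Of the 806 genes with a member at a start site 112 (13.9%) had a row, against 37.3% of all protein-coding genes, and no Hox gene had one. Tested were 114 transcripts of 104 genes with edgeR's quasi-likelihood test (adjusted p under 0.01 over 9288 transcripts). In EN against CV 34 were higher and 37 lower, 62.3% against a background of 76.4% (35.2% higher and 41.2% lower). In EN against ENR 28 were higher and 23 lower (44.7% against 72.7%, 35.5% higher and 37.2% lower), and in CV against ENR 33 were higher and 33 lower (57.9% against 60.0%, 30.2% higher and 29.8% lower). Values below are CPM, counts relative to the TMM-scaled library size, and 3 counts were taken as the least that shows a transcript.

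Enteroendocrine genes and the tuft cell marker Dclk1 were among those that rose towards EN. No list of tuft genes was looked up. Chgb, a granin of hormone granules, had 6.33, 8.41, 6.89 and 8.92 CPM in CV, 255, 251, 246 and 244 in ENR and 868, 838, 465 and 812 in EN (log2 difference of EN from CV 6.60, adjusted p = 1.8e-13). Chga, another granin, had 2.43, 2.80, 2.78 and 2.65, then 48.3, 47.5, 50.4 and 52.2, then 237, 229, 151 and 251 (6.34, adjusted p = 6.8e-14). The cultures did not overlap for either gene. At their members H3K27me3 did overlap: 38, 35 and 20 in CV, 24, 22 and 24 in ENR and 21, 32 and 11 in EN at Chga, and 29, 25 and 13, then 20, 28 and 12, then 10, 21 and 33 at Chgb. ATAC at the Chga member was called lower in EN, where its RNA was highest: 4, 2, 5 and 3 in CV, 2, 3, 6 and 4 in ENR and 3, 0, 1 and 1 in EN (EN against CV -1.12 ± 0.41, adjusted p = 0.041). These scores are low, and EN overlapped both CV and ENR. Over the whole enteroendocrine list, 5 of 15 genes had a row (Chga, Chgb, Gcg, Sct and Sst), and all 5 were higher in EN than in CV, and their summed level ran from 9.70 to 13.7 CPM over the CV libraries, from 337 to 347 over ENR and from 798 to 1287 over EN. Dclk1, a kinase that marks tuft cells, had 0.135, 0.133, 0.663 and 0.602 CPM in CV, 10.1, 11.8, 10.0 and 10.9 in ENR and 36.5, 32.3, 30.7 and 43.8 in EN (adjusted p = 1.3e-12). In this RNA EN also exceeded ENR (1.75, adjusted p = 3.2e-08). The study, which reads mRNA and protein, lists Dclk1 among the markers without enrichment in EN over ENR. Alox5, the lipoxygenase of leukotriene synthesis, had at most 2 counts per library in CV, 2.43, 3.44, 4.56 and 4.53 CPM in ENR and 12.1, 9.64, 12.3 and 13.7 in EN (adjusted p = 9.4e-10).

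Other genes that rose include Ccl6 and, picked after its values were seen, Slc15a1. Ccl6, a chemokine, whose start site is near the run shown above, had 1.35, 0.667, 0.530 and 1.20 CPM in CV, 45.8, 40.6, 40.5 and 42.8 in ENR and 191, 197, 221 and 218 in EN (7.75, adjusted p = 8.1e-17). Its member had H3K27me3 of 156, 121 and 146 in CV, 61, 50 and 44 in ENR and 36, 41 and 21 in EN, but ATAC of at most 1 and H3K27ac of 15, 24 and 8, then 1, 28 and 15, then 45, 8 and 11. Members with a run as a whole also had their highest H3K27me3 in CV. Slc15a1, the peptide transporter of enterocytes, had 10.9, 10.7, 11 and 12.5 CPM in CV, 50.8, 38.1, 38.7 and 46.9 in ENR and 441, 463, 520 and 485 in EN (5.40, adjusted p = 1.9e-16). Its member opened in parallel, with ATAC of 4, 3, 2 and 2, then 5, 6, 5 and 7, then 9, 8, 13 and 16 (1.72 ± 0.28, adjusted p = 0.00011), and its H3K27me3 was 3, 37 and 23, then 36, 54 and 20, then 1, 2 and 16.

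The largest falls included genes seen in CV and nearly absent elsewhere. Of the genes in this paragraph and the next, Ldhb, Fscn1, Lrp2, Plod2 and Col18a1 also have a region high in both marks at a start site, as 254 of the 806 genes do. Ldhb, a lactate dehydrogenase subunit, had 4.58, 5.47, 5.70 and 4.46 CPM in CV, at most 1 count in ENR and 0 counts in EN. Fscn1, which bundles actin, had 1.35, 1.20, 2.39 and 3.49 CPM in CV and 0 counts in the other 8 libraries. Renbp had 5.12, 5.47, 6.23 and 3.37, and Des, the muscle filament desmin, 3.10, 2.54, 3.84 and 1.69 CPM in CV, with at most 1 count each in EN. The adjusted p of EN against CV was 1.1e-07 for Ldhb, 0.00018 for Fscn1, 5.4e-08 for Renbp and 9.7e-06 for Des. No fold change is given, since the EN counts are under 3. The members of Renbp and Des were called less open in EN than in CV in ATAC (-1.48, adjusted p = 0.0028, and -1.41, adjusted p = 0.026). The scores were low: 2, 3, 4 and 3 in CV and 0, 0, 1 and 1 in EN at Renbp. At Des they were 9, 8, 4 and 6 in CV and 1, 7, 0 and 3 in EN, which overlap. Lrp2, an endocytic receptor, had 4.31, 3.47, 3.18 and 4.22 CPM in CV against at most 1 count in ENR and in EN. Its strongest member had H3K27me3 of 10, 35 and 30 in CV, 57, 67 and 59 in ENR and 31, 9 and 33 in EN.

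More abundant genes with a similar order were seen too, picked after their values were known. Hk1, hexokinase, had 136, 135, 132 and 126 CPM in CV, 15.1, 17.0, 12.6 and 14.5 in ENR and 12.7, 10.7, 9.63 and 13.1 in EN (-3.50, adjusted p = 7.4e-15). Kif1a, a kinesin of axonal transport, had 11.6, 12, 12.7 and 12, then 0.768, 0.491, 1.06 and 0.755, then 1.07, 1.5, 1.25 and 1.30 (-3.24, adjusted p = 2.5e-10). Plod2, a collagen lysyl hydroxylase, had 120, 125, 129 and 107 in CV and 0.896, 0.327, 0.456 and 1.01 in ENR (CV against ENR 7.38, adjusted p = 2.2e-14). The Plod2 member, 925 bp into the gene, had ATAC of 9, 7, 8 and 8 in CV, 0, 0, 2 and 0 in ENR and 1, 0, 0 and 0 in EN (2.77 ± 0.40 for CV against ENR, adjusted p = 0.00014), and its mean H3K27me3 of 18.2 lies at the limit. Col18a1, a basement membrane collagen, had 12.1, 11.5, 11.1 and 15.9 CPM in CV and at most 3 counts in ENR, and its member opened in CV against ENR (ATAC 7, 5, 6 and 4, then 1, 1, 1 and 1, 1.68 ± 0.39, adjusted p = 0.0060).

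**Figure D5:**
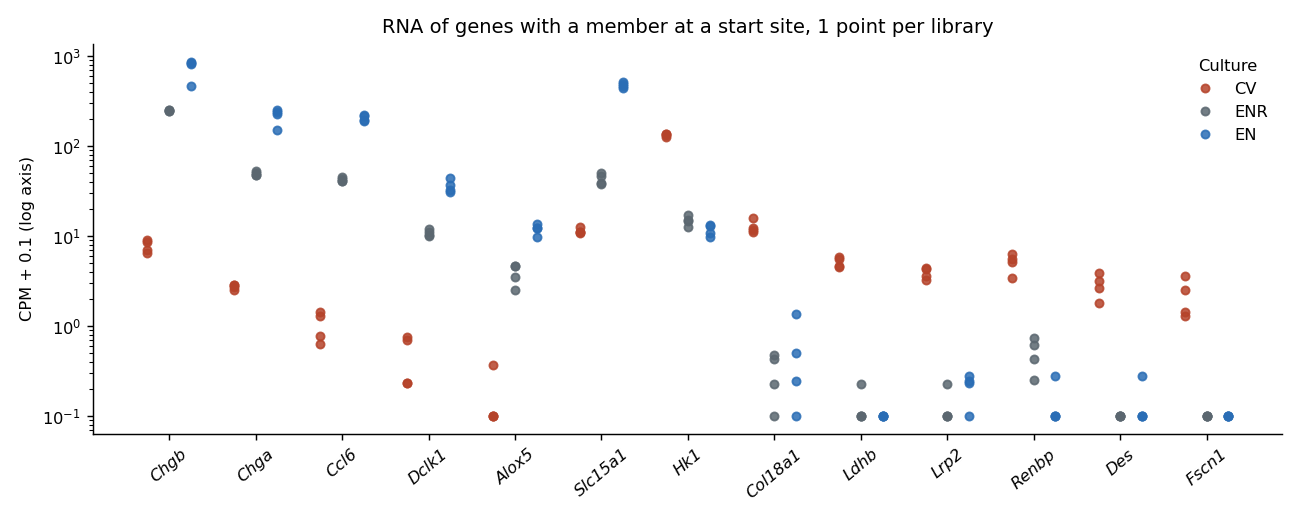
CPM + 0.1 on a log axis, 1 point per library, in CV, ENR and EN for 13 genes with a member at a start site. Chgb to Slc15a1 rise from CV to EN, and Hk1 to Fscn1 are highest in CV, with points at 0.1 standing for 0 counts.

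Changes of RNA and of marks are set side by side next. Of 32 genes higher in RNA in EN than in CV, 3 had a more open and 3 a less open member at the start site, of 36 genes lower in RNA 1 and 6, and of 36 genes not called in RNA 5 and 4. Over all members 6.23% were more and 10.2% less open. For H3K27me3 the counts were 0 more and 1 less among the genes higher in RNA and 1 more and 0 less among those lower. Among genes not called in RNA they were 1 and 0, and over all 5583 members 36 had more and 187 less. In CV against ENR, 4 of 33 genes higher in CV had a more open member and 0 a less open one. Of these 33 genes, 3 had less H3K27me3. Of 32 genes lower in CV, 1 had a more and 1 a less open member and 0 less H3K27me3. For the 39 genes not called the counts were 0, 0 and 1. Over all members 4.32% were more and 2.75% less open in CV, and 137 of 5583 had less H3K27me3. At Ldhb and Hk1 the libraries CV1 and EN1 stood apart in ATAC: at the Ldhb member the scores were 41, 6, 2 and 4 in CV, 7, 3, 3 and 3 in ENR and 162, 14, 2 and 1 in EN, so no change could be called (0.43 ± 0.99, adjusted p = 0.77). For the lists as a whole, with or without a member, 5 Polycomb and demethylase genes rose and 11 fell from CV to EN among 19 tested, where 35.2% of all transcripts rose and 41.2% fell. The counts were 7 and 7 of 15 developmental factors (16 transcripts), 2 and 2 of 4 ligands and 12 and 11 of 25 intestinal epithelial genes.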

How the data were processed

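Per the study's methods and the submitters' processing notes, the authors aligned reads to mm9 with BWA, removed duplicates with Picard, called peaks with MACS2 2.0 and deposited, for the union of peaks, scores per region that they had normalized between libraries and rounded. For H3K27me3 the column names give an extension of 1000 bp, and the study's methods describe an extension of the peaks to that length. They deposited raw counts of Hnf4g reads per region, and for RNA the expected counts, TPM and spike-in scaled copies of kallisto (0.43.0 in the processing notes, a later patch version in the methods). The deposited TPM and copies were not used here, nor were 10 further histone libraries and the Hnf4g knockout RNA. Whether libraries came from separate cultures is not stated in the labels, so p-values measure the spread between libraries. The scores are not raw counts, so DESeq2, which the study's methods name, was not run on them.

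Regions above 0 in at least 3 libraries were tested with limma 3.58.1 (mean trend, log2(score + 1), pseudocount 1, 1 fit per dataset with all 3 cultures). Fold changes are therefore on the log2(score + 1) scale and understate changes of low scores. Expected counts were rounded and transcripts with a count in at least 4 libraries (9288 of 9481, library totals 5630951 to 8859744) were tested with edgeR 4.0.16 after TMM, in R 4.3.3. Members, places and sequences were found in Python 3.11.15 with the mm9 genome and GENCODE annotation, with file coordinates read as 1-based and inclusive. The column names carry no statement on this. The steps were tested on simulated data with 200 changes in EN against CV, none among the lowest values. For limma they were drawn only from regions with mean scores above the members' medians, which were 1.50 in ATAC, 1.89 in H3K27ac and 1.00 in H3K4me3. How many changes would be found at members with such low scores was not simulated. Of 2-fold changes limma found 139 in ATAC, 66 in H3K4me3, 0 in H3K27ac and 0 in H3K27me3. Of 4-fold changes it found 200, 197, 175 and 25 in the same order. With edgeR, 199 of 200 2-fold changes in RNA were found. Small counts for H3K27ac and H3K27me3 therefore do not show that little changed. Alternatives were the pseudocount, trend, quantile normalization, filter, study threshold, replicate block, scores per kb, distance to start sites, DESeq2 1.42.0 for RNA, and each library left out.

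The members and gene lists were chosen with earlier results of these data known. Named regions were the 10 highest in H3K27me3, those at the limits, the 3 largest non-overlapping rises and falls per contrast, the longest runs of neighbours and the strongest member of each list. Named genes were the 5 largest non-overlapping rises and falls in EN against CV and CV against ENR, and list genes. The text names a choice of these, and says where it goes outside the rule. A few regions and genes are not reported here.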

Additional observations from a re-analysis of the deposited data

Results flagged for a closer look

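Within groups of 4 libraries, 13 of 99 values checked had 1 library far from the other 3 by Dixon's test, which chance gives in about 1 of 20 groups. Library EN1 was the highest in mean ATAC score over the members (7.31, next 3.38) and over the members with neither CpG richness nor a run (11.5, next 4.96). The remaining ATAC flags are low scores: 5 in CV (next 2) near Cyp46a1, 1 in ENR (next 2) in Igfbp5, 3 in EN (next 1) at the member 9833 bp from Tlx1 and 1 in CV (next 0) near Etd. In RNA, Chgb had 465 CPM in 1 EN library (next 812) and Slc15a1 12.5 CPM in 1 CV library (next 11). The others are 1 or 2 counts in a library where the rest had 0: Alox5 in CV at 0.270 CPM, Ldhb in ENR at 0.128, Renbp in EN at 0.178, Des in EN at 0.178 and Lrp2 in ENR at 0.126.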

How the results depend on the processing

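Counts of called members are given for EN against CV, EN against ENR and CV against ENR, in this order. With the adjusted p thresholds of the study's figures, ATAC fell to 66, 10 and 3, H3K27ac to 2, 0 and 0, H3K4me3 to 0, 0 and 0 and H3K27me3 to 65, 0 and 82. Without the mean trend they were 10, 0 and 0 for H3K27ac and 0, 0 and 32 for H3K27me3. For limma counts of 0 in H3K27ac, H3K4me3 and H3K27me3, the counts at an unadjusted p under 0.05 in the fit of the report were 584, 218 and 832, 1087, 1327 and 1190, and 1617, 826 and 1677. With quantile normalization they were 35, 5 and 2 for H3K27ac, 47, 0 and 91 for H3K27me3, and 80 and 3 for the last 2 contrasts of H3K4me3. A pseudocount of 5 left 0 for H3K27me3 in EN against ENR. Scores per kb as the basis of the rule gave 36 for H3K27ac in CV against ENR and 352 for H3K4me3 in EN against CV. Without members that hold an alternating run, an alternative added after seeing the data, the counts were 40 for H3K27ac and 98 for H3K27me3 in EN against CV and 167 for H3K4me3 in EN against ENR. Start sites within 2000 bp gave 116, 85 and 108 transcripts in RNA. Dropping the filters, DESeq2 for RNA, and members off the X or on placed chromosomes moved no count by more than 1.5 times. The cause of these shifts was not tested.

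With the replicate number as a block, H3K27ac had 0, 0 and 0, H3K4me3 129, 320 and 0, H3K27me3 70, 1 and 49, ATAC 956, 645 and 430 and RNA 69, 51 and 63 called. The labels do not say that a number marks a shared culture or day. Deviations of same-numbered libraries correlated by 0.0695 to 0.460 in ATAC (mean 0.170, against -0.0557 for different numbers), and the block moved the ATAC split of EN against ENR from 229 higher and 214 lower to 415 and 230. In RNA the correlations ran from -0.0590 to 0.0955.

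Leaving out each library in turn gave 762 to 934, 306 to 490 and 285 to 482 for ATAC, for H3K27ac 9 to 65, 1 to 15 and 1 to 28, for H3K4me3 8 to 300, 116 to 516 and 0 to 266, for H3K27me3 48 to 369, 0 to 50 and 60 to 421, and 66 to 73, 48 to 52 and 60 to 66 for RNA. Median scores at members were 1 for H3K4me3 and 1.5 for ATAC, and each histone mark had 3 libraries per culture.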
